A study of Mus musculus with 12 samples.

Results

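Prss50, Slc38a5, Slc26a1 and BC021614 are 4 genes that were read in every P2- PreMegE library, BC021614 only weakly, and were almost or entirely absent from P2+ PreMegEs. They were picked by name, out of 41128 genes in the count table, because they fell steeply from P2- to P2+, so their P2- and P2+ values are given below as a description and without a test. In RUNX1C KO PreMegEs, which played no part in that choice, the genes went separate ways: Slc38a5 rose over WT under every way of fitting tried, Slc26a1 rose but lost its call in 2 of them, Prss50 did not pass the test, and BC021614 passed it narrowly on few reads.

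PreMegEs are bone marrow progenitors that can still give both megakaryocytes and erythroid cells. The transcription factor gene Runx1 is read from a distal promoter, P1, which makes the isoform RUNX1C, and from a proximal promoter, P2. Reporters placed at the promoters allow cells with and without P2 activity to be sorted alive from the same marrow.

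All mice were C57BL/6, aged 12 to 16 weeks, and the cells came from adult bone marrow. The P2+ and P2- groups were sorted from reporter mice of the genotype Runx1 P1-GFP::P2-hCD4/+, in which GFP marks P1 and the surface protein hCD4 marks P2 on 1 of the Runx1 alleles, and both groups were P1+. The WT group came from wild type mice and the KO group from RUNX1C knockout mice, in which both alleles give GFP from P1 and keep P2, and neither was divided by P2 activity. PreMegEs were sorted as lineage-negative cells with Kit and CD150 but without Sca1, CD41, CD16/32 or Endoglin at the surface. In transcripts of WT PreMegEs, Kit (933 CPM) and Slamf1, the gene for CD150 (36.0 CPM), were present and Ly6a, the gene for Sca1, was at 1.14 CPM, whereas Itga2b, the gene for CD41 (156 CPM), and Eng (128 CPM) were read too. There were 3 libraries in a group and the cells of 3 mice were pooled for every library, so an error below is a spread between pools. WT and KO differ from the P2 groups in their Runx1 alleles as well as in the sort, and these cannot be told apart. The same holds for the KO genotype and any difference in handling between the KO and WT libraries.

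Prss50 encodes a trypsin-family protease best known from testis. Slc38a5 encodes SNAT5, a sodium-coupled transporter that carries glutamine, histidine, serine, asparagine and glycine across the plasma membrane. Slc26a1 encodes a sulfate anion transporter that exchanges sulfate for oxalate or bicarbonate. BC021614 carries in GENCODE vM21 the name Gstp3, a glutathione S-transferase of the pi class, which are enzymes that couple glutathione to reactive compounds.

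On GRCm38, Prss50 (ENSMUSG00000048752) lies at chr9:110857967-110864629 on the plus strand, with 1456 exonic bases. Slc38a5 (ENSMUSG00000031170) lies at chrX:8271133-8280179 on the plus strand, with 2241 exonic bases. Slc26a1 (ENSMUSG00000046959) lies at chr5:108669878-108675569 on the minus strand, with 4050 exonic bases. BC021614 (ENSMUSG00000058216) lies at chr19:4057477-4059569 on the minus strand, with 908 exonic bases. The 4 genes thus lie on 4 chromosomes.

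Slc26a1 sits within Idua, which runs along the opposite strand at chr5:108660331-108684557 and encodes the lysosomal enzyme alpha-L-iduronidase. The pair shared 141 exonic bases, or 3.48% of the exonic length of Slc26a1. Of the 4046 windows of 75 bases in Slc26a1 transcripts, 69 also occurred in Idua transcripts, and for the other 3 genes no window occurred in another gene. Since it is not given in the sources used here whether the counting used strand, reads on the shared bases cannot be assigned to either gene with certainty.

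RefSeq promoter sequences on GRCm38.p6 were found for all 4 genes. The 250 bases upstream of the RefSeq start are considered here, as the genes were chosen for a shared fall between the P2 groups. Both strands were searched for 3 motifs, the GATA motif AGATAA, the KLF motif CCNCNCCC and the RUNX motif TGTGGT, bound by factor families that act in megakaryocyte and erythroid cells. Of 27025 promoters of this length, 10.2% held the GATA, 45.6% the KLF and 14.2% the RUNX motif. Capitals mark a match below, and bases annotated as exon in GENCODE vM21 were left out. For Slc26a1 only the 30 bases around its match, which are exonic, are shown, and its 46 bases outside exons (chr5:108675570-108675615), which held no match, are not. The stretches are chr9:110857714-110857963 (plus strand) for Prss50, chrX:8271261-8271380 (plus) for Slc38a5, chr5:108675525-108675554 (minus) for Slc26a1 and chr19:4059570-4059697 (minus) for BC021614, each written 5′ to 3′ along the gene.
Prss50: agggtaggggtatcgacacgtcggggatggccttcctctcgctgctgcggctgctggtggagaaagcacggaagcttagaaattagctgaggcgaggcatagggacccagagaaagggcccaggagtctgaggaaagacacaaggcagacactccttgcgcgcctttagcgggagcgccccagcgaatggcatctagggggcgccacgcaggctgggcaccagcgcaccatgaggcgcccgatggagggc
Slc38a5: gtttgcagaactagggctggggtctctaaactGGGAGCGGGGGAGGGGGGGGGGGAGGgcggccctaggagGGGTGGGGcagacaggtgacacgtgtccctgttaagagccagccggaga
Slc26a1: gtaaaggggagtTTATCTcatgcccacata
BC021614: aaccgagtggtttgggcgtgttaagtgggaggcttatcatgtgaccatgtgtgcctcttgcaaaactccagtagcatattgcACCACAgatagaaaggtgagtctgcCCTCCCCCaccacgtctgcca

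The promoter of Prss50 held no match to any of the 3 motifs. That of Slc38a5 held 9 KLF matches on the reverse strand, of which 8 overlap one another in a run of G and are not separate places. Its window starts at chrX:8271131 and the gene in vM21 at chrX:8271133. The stretch shown for Slc38a5 thus lies inside the gene as vM21 annotates it, outside its exons. That of Slc26a1 held 1 GATA match on the reverse strand, between 177 and 172 bases upstream of the RefSeq start and inside an exon that vM21 annotates for Slc26a1. That of BC021614 held 1 RUNX match on the reverse strand, between 168 and 163 bases upstream, and 1 KLF match between 143 and 136 bases upstream. No motif was found in all 4 promoters, and no match overlapped a match of another motif.

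Levels are given as CPM, counts scaled to the TMM-adjusted size of the library over the 12 libraries, when groups are compared for one gene. The totals per library were between 10726098 and 14445026 counts, with a median of 12284879, and 3 counts, taken as the limit that a count of 0 allows, stood at between 0.207 and 0.288 CPM. This limit covers counting error only. In bulk samples a lower level can come from fewer cells that express a gene or from less RNA per cell, and these cannot be told apart.

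Prss50 was at 19.1, 26.9 and 24.9 CPM in the WT libraries and at 35.9, 19.6 and 44.5 CPM in P2- PreMegEs. It was at 1.01, 0.483 and 0.686 CPM in P2+ PreMegEs, from 12, 7 and 9 counts, and at 19.0, 25.8 and 17.1 CPM in KO PreMegEs. The WT, P2- and KO libraries overlapped in pairs, whereas all P2+ libraries lay far below the rest.

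Slc38a5 was at 14.4, 15.8 and 14.7 CPM in WT and at 51.3, 47.2 and 48.2 CPM in P2- PreMegEs. It was at 1.01, 1.66 and 0.686 CPM in P2+ PreMegEs, from 12, 24 and 9 counts, and at 48.4, 53.1 and 55.3 CPM in KO PreMegEs. The replicates were tight, KO and P2- libraries overlapped, and WT stood apart from both and from P2+.

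Slc26a1 was at 3.05, 5.91 and 5.39 CPM in WT and at 18.8, 9.70 and 14.1 CPM in P2- PreMegEs. It had 3, 0 and 0 counts in the P2+ libraries, and it was at 9.43, 10.0 and 11.4 CPM in KO PreMegEs. KO overlapped P2- here too, and every WT library was below every KO and P2- library.

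BC021614 was a weakly read gene with 5, 13 and 8 counts in WT, 20, 12 and 43 in P2-, 0, 0 and 0 in P2+ and 18, 15 and 39 in KO PreMegEs. On the CPM scale this gave 0.347, 1.10 and 0.583 in WT, 1.59, 1.15 and 3.03 in P2- and 1.57, 1.28 and 3.55 in KO. KO and P2- overlapped, and WT lay below both with only a small gap between its highest library and the lowest P2- library.

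**Figure D1:**
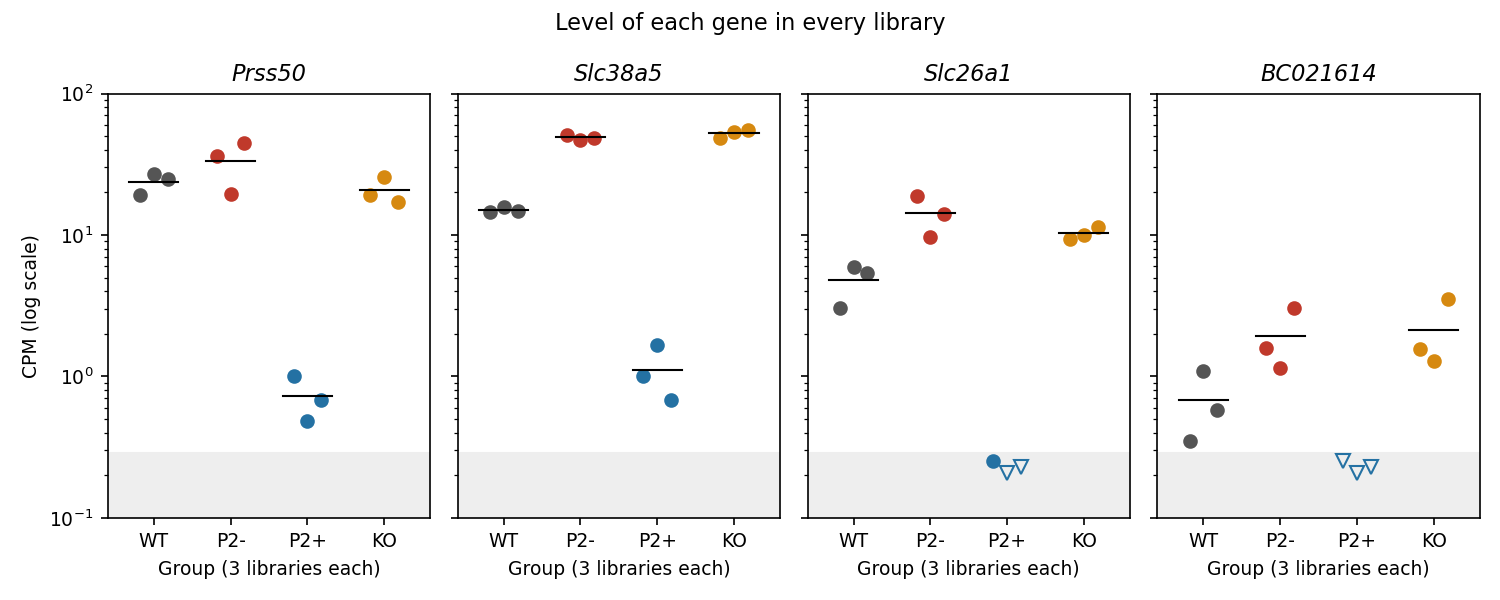
CPM on a log axis of each gene in the 12 libraries, by group, with a point per library and a line at the group mean. Open triangles are libraries with 0 counts, drawn at the level of 3 counts in that library, and the grey band lies under the highest such level (0.288 CPM). All 4 genes drop in P2+, and Slc38a5, Slc26a1 and BC021614 stand higher in KO than in WT.

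Between genes, levels are compared per length as RPKM, which uses exonic length alone. The exons form 5 blocks in Prss50, 17 in Slc38a5, 4 in Slc26a1 and 7 in BC021614. The part of reads lost at exon junctions in the order between genes was not tested. In P2- PreMegEs, Prss50 and Slc38a5 were read at like levels, 22.9 ± 8.67 and 21.8 ± 0.95 RPKM (SD, n = 3), with Slc26a1 at 3.51 ± 1.12 and BC021614 at 2.12 ± 1.08 RPKM. In KO PreMegEs the order was Slc38a5 at 23.3 ± 1.59 RPKM, Prss50 at 14.2 ± 3.15, Slc26a1 at 2.54 ± 0.25 and BC021614 at 2.35 ± 1.36. In WT PreMegEs Prss50 led with 16.3 ± 2.78 RPKM, ahead of Slc38a5 at 6.68 ± 0.32. The first 2 places were thus exchanged between WT and KO, and the libraries of Prss50 and Slc38a5 did not overlap in either group.

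The falls from P2- to P2+ were the values that chose the genes. Among the 12836 genes fitted, of which 3.13% were lower in P2+ at an adjusted p under 0.05 and at least 2-fold, BC021614 was in place 2, Slc26a1 in place 3, Prss50 in place 9 and Slc38a5 in place 10 by the size of the fitted fall. Places 2 and 3 rest on P2+ libraries at or near 0 counts, where the fitted size depends on the prior count. Every P2+ library was below every P2- library for all 4, as for 25.1% of genes fitted. The fitted log2 fold change was -5.52 (SE 0.39) for Prss50 and -5.41 (SE 0.24) for Slc38a5. Slc26a1 had 3 counts in all P2+ libraries against 537 in P2-, which gave a P2- level 191 times that of P2+ (95% interval from 64.8 to 927, exact Clopper-Pearson interval on the counts, counting error only). Without P2+ replicate 1, the library that held the 3 counts, the log2 value of this ratio went from -7.57 to a bound of -6.03. For BC021614, with 0 counts in P2+, the level there was at least 8.41-fold lower, computed against 3 counts per library, and this bound (-3.07 on the log2 scale) does not by itself place it ahead of Prss50 or Slc38a5. All 4 genes passed the filter on low counts through their P2- libraries, the group in which they were high.

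P2+ and P2- libraries of the same number deviated together from their group means, so the fall can be read pair by pair. P2- exceeded P2+ by 35.7, 40.6 and 64.8 times for Prss50 in pairs 1 to 3. For Slc38a5 it exceeded it by 51.0, 28.5 and 70.2 times. For Slc26a1 pair 1, with 3 counts in P2+, gave 74.7 times (95% exact interval from 25.3 to 365), and pairs 2 and 3, with 0 counts in P2+, gave at least 46.8 and 61.7 times. For BC021614 the pairs gave at least 6.33, 5.57 and 13.3 times.

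The genes next in that order were Mt2, a metallothionein, in place 1, and Muc6, a mucin, in place 4, both with 0 counts in P2+, so that their places too depend on the prior count. Pklr, the pyruvate kinase of liver and red cells, was in place 8 with a log2 fold change of -5.78 (SE 0.25), and Car1, carbonic anhydrase 1, in place 11 with -5.40 (SE 0.17). The levels of these genes in P2- PreMegEs were 8.60 CPM for Mt2, 1.44 for Muc6, 113 for Pklr and 502 for Car1.

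P2- replicate 2 held the lowest P2- value of all 4 genes. Replicate 2 of P2- and of P2+ also stood apart in immediate early genes, which respond within minutes to handling or stimulation. Their CPM summed over 14 genes was 13774 and 9271 in those libraries against between 205 and 1315 in the other 10. The part of this in the lower values was not tested. Without both libraries, a choice made after the data were seen, the log2 fold change was -5.54 (SE 0.26) for Prss50 and -5.85 (SE 0.23) for Slc38a5.

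Set against its own P2- mean, WT was at 71.0% for Prss50, 30.6% for Slc38a5, 33.7% for Slc26a1 and 35.1% for BC021614. KO was at 62.0% for Prss50, 107% for Slc38a5, 72.3% for Slc26a1 and 111% for BC021614. P2+ was at 2.18% for Prss50, 2.28% for Slc38a5 and 0.590% for Slc26a1, and BC021614 was at 0 there. The KO libraries of BC021614 lay between 66.6% and 184%. The WT libraries lay between 57.4% and 80.9% for Prss50, 29.5% and 32.3% for Slc38a5, 21.5% and 41.6% for Slc26a1 and 18.0% and 57.0% for BC021614, so that the WT spread of BC021614 nearly reached the lowest library of Prss50.

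**Figure D2:**
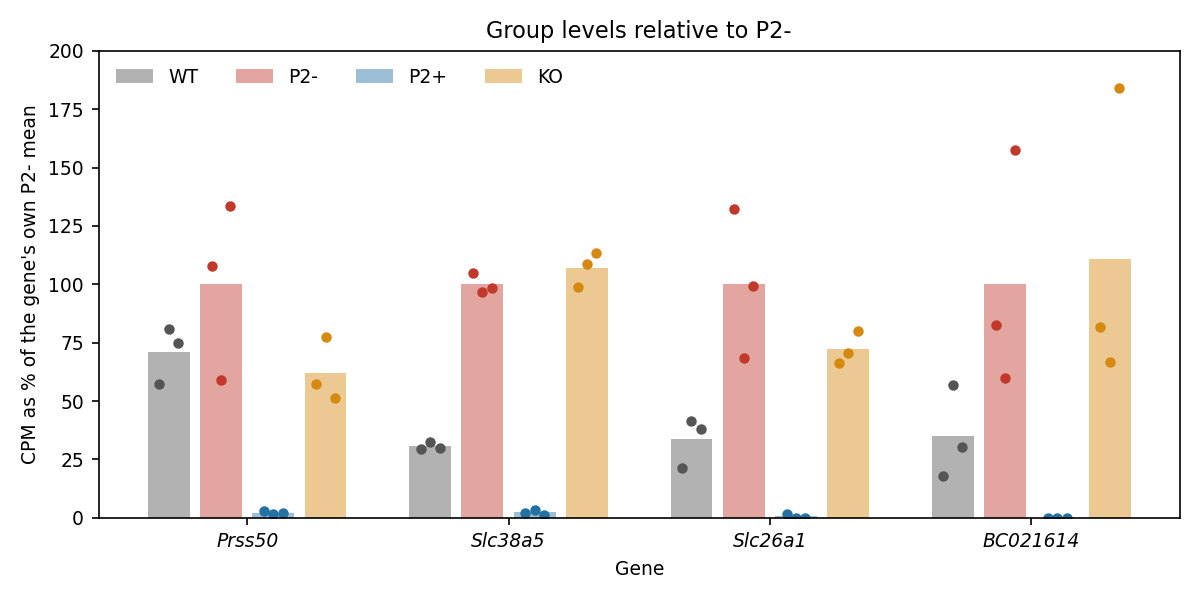
Mean CPM of each group as a percent of the P2- mean of the same gene (bars, linear axis from 0), with a point per library. WT bars are at 71.0% for Prss50 and between 30.6% and 35.1% for the other 3 genes, and KO bars are above the WT bars for all but Prss50.

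The comparison of RUNX1C KO with WT PreMegEs asks how the genes stand when the P1 isoform is missing, and its 6 libraries took no part in choosing them. Slc38a5 was 3.47-fold higher in KO, a log2 fold change of 1.80 (SE 0.11, edgeR quasi-likelihood test, adjusted p = 5.7e-09 over 12784 genes), and by p it was in place 12 of them. Slc26a1 was 2.14-fold higher, with a log2 fold change of 1.10 (SE 0.24, edgeR adjusted p = 0.00426). Prss50 had a log2 fold change of -0.20 (SE 0.16, edgeR adjusted p = 0.477), and 2 SE on either side reach from -0.52 to 0.12, so that a 2-fold change in either direction is outside the range.

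BC021614 had a log2 fold change of 1.66 (SE 0.54, edgeR adjusted p = 0.0471), just inside the threshold and on 26 counts in the 3 WT and 72 in the 3 KO libraries. It passed the filter on low counts through its KO libraries, where it was high, so its call lends no weight to a count over the 4 genes. Its adjusted p was 0.144 without WT replicate 1, 0.112 without WT replicate 3, 0.0534 without KO replicate 1 and 0.281 without KO replicate 3. Without WT replicate 1, Slc26a1 was under 2-fold with a log2 fold change of 0.85 (SE 0.22, edgeR adjusted p = 0.0131), and in one fit of all 4 groups its adjusted p was 0.0531 at a log2 fold change of 1.09.

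At an adjusted p under 0.05 and at least 2-fold, Slc38a5 and, with the losses just given, Slc26a1 were thus higher in KO, where 0.743% of all genes tested were, with BC021614 left uncounted for the reason given. Among the 395 genes called lower in P2+ than in P2- PreMegEs and tested here, these 4 included, 49 or 12.4% were higher in KO and 9 were lower. In Slc38a5 and Slc26a1 every KO library was above every WT library, as in 15.6% of all genes tested, and BC021614, on few counts, had the same order.

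**Figure D3:**
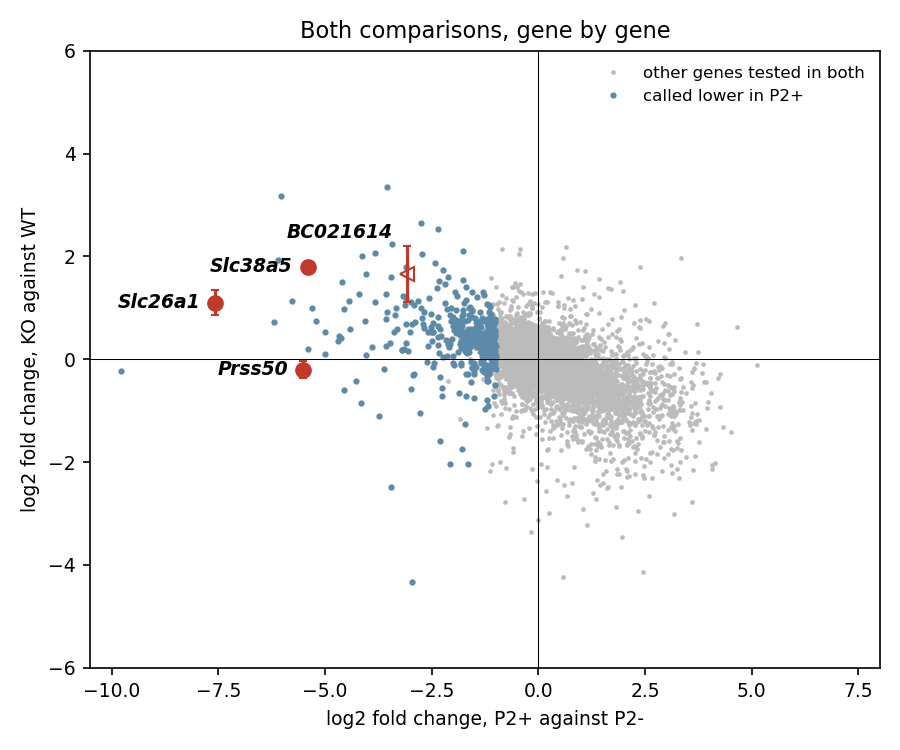
Fitted log2 fold change of P2+ against P2- (x axis) and of KO against WT (y axis) for the 12591 genes tested in both, which share no library. Red symbols are the 4 genes with the SE of KO against WT. Slc26a1 is placed at the ratio of its counts (-7.57, and a bound of -6.03 without P2+ replicate 1) and the open triangle places BC021614 at its bound. Slc38a5 (1.80), BC021614 (1.66) and Slc26a1 (1.10) lie above 0 on the y axis and Prss50 (-0.20) lies near Slc38a5 on the x axis but just below 0 on the y axis.

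Ratios between the genes within a library do not depend on the scaling of libraries. Slc38a5 had between 0.586 and 0.754 times the counts of Prss50 in WT and between 2.06 and 3.23 times in KO. For Slc26a1 over Prss50 the ratio was between 0.159 and 0.219 in WT and between 0.387 and 0.665 in KO. For Slc38a5 over Slc26a1 it was between 2.67 and 4.73 in WT and between 4.86 and 5.31 in KO. The groups did not overlap in any of the 3 ratios, and a two-sided exact permutation test gave p = 0.1 for each (adjusted over the 3 ratios p = 0.1), the smallest that 3 against 3 libraries allow. The design cannot reach a threshold of 0.05.

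**Figure D4:**
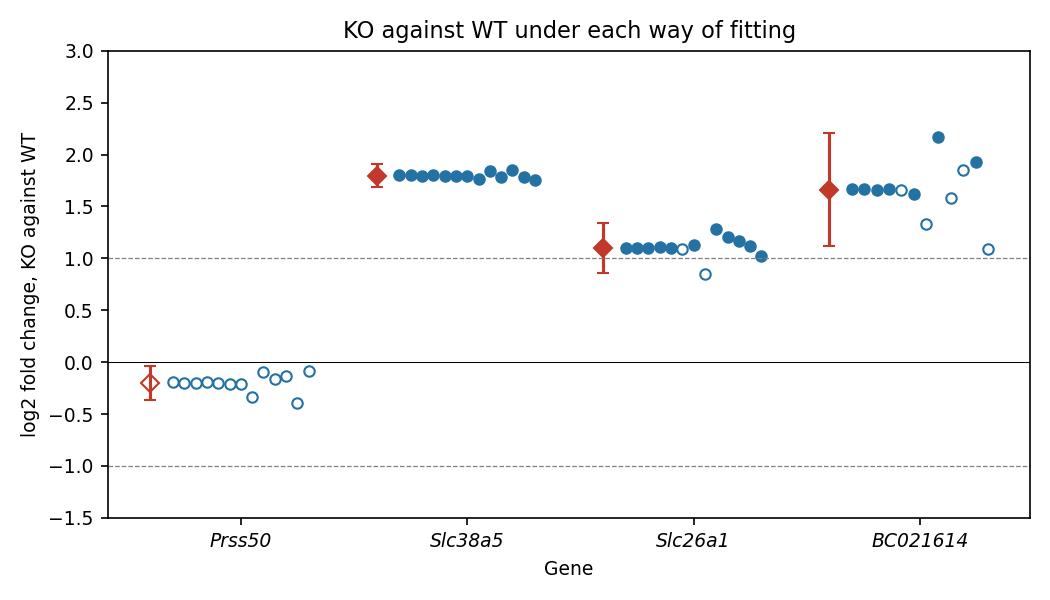
Log2 fold change of KO against WT for each gene as reported (red diamond with SE) and under each other way of fitting (blue circles, among them each library left out in turn). Filled symbols passed an adjusted p of 0.05 and a 2-fold change (dashed lines). Slc38a5 is filled throughout, Prss50 never, and Slc26a1 and BC021614 have open circles among the filled.

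Markers of erythroid cells also differed between the groups. Summed over 21 erythroid markers, the level was between 6170 and 6985 CPM in P2-, between 1426 and 1686 in P2+, between 3524 and 4047 in WT and between 5904 and 6604 in KO PreMegEs. No erythroid marker was at 0 throughout a group. The P2- and KO libraries overlapped in this sum, WT lay below both and P2+ below WT, and the libraries of Slc38a5, Slc26a1 and BC021614 fell in the same way. For Prss50 the WT, P2- and KO libraries overlapped. The part of cell composition in the values of the 4 genes was not tested. Of 20 erythroid markers tested, 3 were higher in KO (Rhd, Ank1 and Rhag, with log2 fold changes of 1.49, 1.27 and 1.19) and none was lower, with a median of 0.46 against -0.00 over all genes, of which 0.743% were called higher in KO and 2.67% lower. On p alone, which 14.9% of all genes passed in either direction, 11 of the 20 were higher in KO and none was lower. At 1.80, the log2 fold change of Slc38a5 was above those of all 3. Of 19 tested in the P2 groups, 12 were lower in P2+ and none was called higher, and the median was -1.63 against -0.02 over all genes, of which 3.13% were called lower in P2+ and 9.54% higher. On p alone, which 37.1% of all genes passed in either direction, 15 of the 19 were lower in P2+. Sptb, a spectrin of the red cell membrane skeleton, was the 1 marker higher in P2+ on p alone, with a log2 fold change of 0.87 (SE 0.22, edgeR adjusted p = 0.0129).

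The markers of other cells that were called moved the other way, against 9.54% of all genes higher in P2+ and 2.67% lower in KO. The megakaryocyte sum was between 486 and 653 CPM in P2-, between 2598 and 3668 in P2+, between 1646 and 1826 in WT and between 1133 and 1295 in KO. Of these markers 16 of 18 tested were higher in P2+, and 3 of 19 were lower in KO (Pf4, Selp and Gp1bb). On p alone 11 of the 19 were lower in KO and 3 were higher, Treml1 with a log2 fold change of 0.79, Ppbp with 0.70 and Gp5 with 0.39. Of the neutrophil and monocyte markers 8 of 14 were higher in P2+ and 5 of 12 were lower in KO, and of the stem cell markers 8 of 11 were higher in P2+ and 2 of 11 were lower in KO. On p alone 7 of the 12 neutrophil and monocyte markers and 7 of the 11 stem cell markers were lower in KO and none was higher. Of the lymphoid markers 7 of 9 were higher in P2+ and 1 of 12 was lower in KO (2 on p alone), and of the mast cell and basophil markers 4 of 5 were higher in P2+ and 0 of 4 were called in KO. At an adjusted p under 0.05 alone, 3 of those 4 passed in KO, under 2-fold, with log2 fold changes of 0.98 for Cpa3, 0.71 for Ms4a2 and -0.19 for Gata2. The mast cell protease genes Cma1, Tpsab1 and Tpsb2 had 0 counts in every library, and the T cell genes Cd3g and Cd8a likewise. The genes for the sorted surface antigens were listed together with Cd34, which was not part of this sort. Of these, 3 of 8 were higher in P2+ and 0 of 8 were called in KO (2 higher and 3 lower on p alone). Cd34 was among those higher in P2+ (2.73) and among those lower in KO on p alone (-0.81). Of the immediate early genes 0 of 10 were called in the P2 groups and 1 of 11 was lower in KO (3 on p alone).

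Runx1 itself, counted over both promoters, was at 369 ± 15.6 CPM in WT and 360 ± 20.4 in KO (SD, n = 3), a log2 fold change of -0.05 (SE 0.06, edgeR adjusted p = 0.702). A count over the whole gene does not separate RUNX1C from the P2 isoforms, so it does not check the KO label. It was at 211 ± 7.34 CPM in P2- and 631 ± 24.2 in P2+ PreMegEs, the opposite order to the 4 genes.

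Slc38a5 is on the X chromosome, and the study's mice were of both sexes. Xist, read from the inactive X of females, lay between 0 and 2729 CPM in P2- and between 5.18 and 2176 CPM in P2+, and Ddx3y, a gene of the Y chromosome, between 0 and 106 and between 0 and 71.5 CPM. The mix of sexes thus varied between the pools of the P2 groups, down to pools with almost none of one of these transcripts, and Slc38a5 lay between 47.2 and 51.3 CPM in P2-. In WT and KO, Xist lay between 990 and 2358 and between 1474 and 2131 CPM, and Ddx3y between 20.7 and 70.8 and between 25.8 and 47.0 CPM. The part of the mix of sexes in the values of Slc38a5 was not tested.

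Slc38a5 belongs to the SLC38 family of sodium-coupled amino acid transporters. Of its 10 other members, 6 passed the filter, and in KO none of them was called in either direction (0.743% of all genes higher and 2.67% lower). In P2+ (9.54% of all genes higher and 3.13% lower) only Slc38a9, a lysosomal arginine sensor, was called. Its log2 fold change was -1.01 (SE 0.18, edgeR adjusted p = 0.00259), and its level fell from 75.8 to 37.2 CPM. At a threshold on p alone, which 37.1% of all genes passed in P2+ against P2- and 14.9% in KO against WT, Slc38a7 also passed in P2+. Its log2 fold change there was -0.81 (SE 0.13). Slc38a9 and Slc38a7 both passed on p alone in KO, with log2 fold changes of 0.57 and 0.52, against 1.80 for Slc38a5. Slc38a1 and Slc38a2, which carry glutamine and related amino acids as Slc38a5 does, had log2 fold changes of 0.03 and -0.06 in KO, with Slc38a1 at 463 CPM in WT.

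Among 14 other carriers of neutral amino acids tested, 4 were higher and 1 was lower in P2+ (9.54% and 3.13% of all genes), and 1 was lower in KO (2.67% of all genes). Slc6a15 was the one called in both, with log2 fold changes of 2.66 (SE 0.27) in P2+ and -2.31 (SE 0.34) in KO, the opposite signs to Slc38a5. Slc7a8 was called in P2+ with 1.41 (SE 0.17) and passed on p alone in KO with 0.89 (SE 0.12). Of the enzymes that use glutamine, serine and glycine, 1 of 17 was lower in P2+ (Asns, asparagine synthetase, -1.21) and 0 of 18 were called in KO, with 2 passing on p alone. The median log2 fold change of these enzymes in KO was -0.00, as over all genes.

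Slc26a1 has 10 relatives in the SLC26 family of anion exchangers, of which 3 passed the filter and 0 were called in either comparison, with 1 passing on p alone in KO. Slc26a2, a sulfate transporter and the one with the most reads, was at 134 CPM in WT and 137 CPM in KO, with a log2 fold change of 0.01 (SE 0.06). Among 13 genes of sulfate use, 1 was higher in KO (0.743% of all genes) and 1 was lower in P2+ (3.13% of all genes). The first was Papss2, which makes the activated sulfate donor, with a log2 fold change of 2.14 (SE 0.22, edgeR adjusted p = 2.52e-06), and the second was Sqrdl, a sulfide oxidase, with -1.17 (SE 0.40). Papss2 was at 2.83 CPM in WT, 7.66 in P2-, 4.21 in P2+ and 12.7 in KO, so that unlike Slc26a1 it was higher in P2+ than in WT in mean level. Of 13 lysosomal glycosaminoglycan enzymes, 0 were called in either comparison, while 9 passed on p alone in P2+ (37.1% of all genes), 5 of them higher and 4 lower, and 0 did in KO (14.9% of all genes).

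Prss50 is one of a large name series of trypsin-family proteases. Of the 38 other Prss genes, 2 passed the filter, Prss36 and Prss57, and neither was called in P2+ (9.54% of all genes higher and 3.13% lower). Prss57, a protease of neutrophil granules, was lower in KO (2.67% of all genes) with a log2 fold change of -2.14 (SE 0.35, edgeR adjusted p = 0.000391), where Prss50 had -0.20.

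Genes beside the 4 on the chromosome were read to see whether the falls extended along it. Of 24 neighbours, 3 on each side of each gene, 10 passed the filter. Next to Prss50, the protease genes Prss46, Prss45 and Prss43 lay within 26128 bases and had at most 3 counts in any library, and Als2cl, which lies 15241 bases away, was higher in P2+ with a log2 fold change of 2.69 (SE 0.53, edgeR adjusted p = 0.00408) and lower in KO with -1.34 (SE 0.26, edgeR adjusted p = 0.00141). Both neighbours of Slc38a5 that passed the filter, Ftsj1 and Ebp, were under 2-fold in each comparison, and the 3 Ssxb genes on the other side had 0 counts in every library.

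Around Slc26a1, the overlapping Idua had log2 fold changes of -0.43 (SE 0.12, edgeR adjusted p = 0.0216) in P2+ and 0.13 (SE 0.10, edgeR adjusted p = 0.438) in KO, and was under 2-fold in both. Idua was at 29.0 ± 2.92 CPM in P2+ PreMegEs (SD, n = 3), where Slc26a1 had 3 counts over all libraries, so no more than 3 Idua reads there were assigned to Slc26a1. Dgkq, 206 bases from Slc26a1, was not called in either comparison, and Fgfrl1, 16813 bases away, was lower in P2+ with -1.31 (SE 0.15) and had 0.10 (SE 0.15) in KO. Next to BC021614, its relative Gstp1 was lower in P2+ with a log2 fold change of -1.77 (SE 0.49, edgeR adjusted p = 0.0208) and had 0.96 (SE 0.42, edgeR adjusted p = 0.149) in KO, with means of 1.04 CPM in WT and 2.03 CPM in KO. In all, of the 10 neighbours tested 1 was higher and 2 were lower in P2+ (9.54% and 3.13% of all genes), and 0 were higher and 1 was lower in KO (0.743% and 2.67% of all genes).

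**Figure D5:**
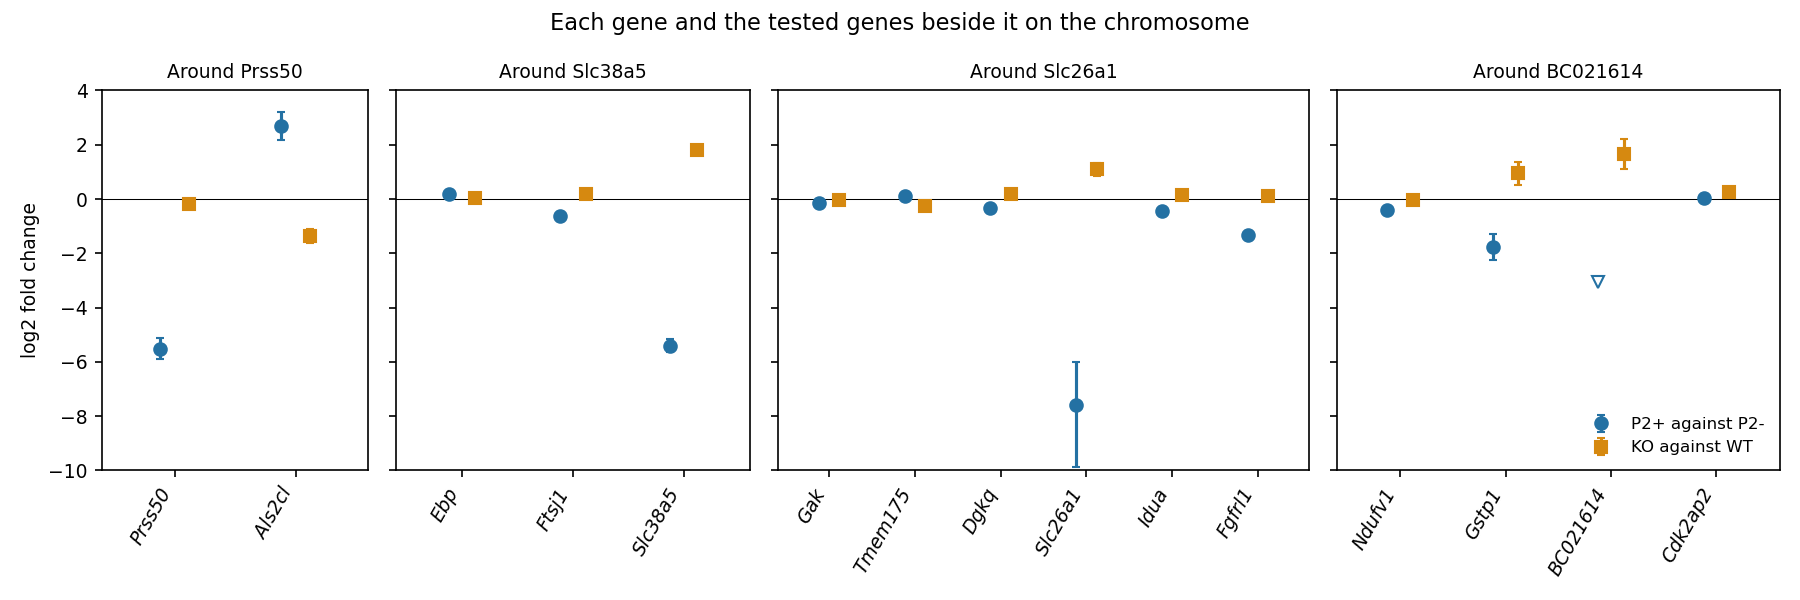
Log2 fold change with SE of P2+ against P2- (blue circles) and KO against WT (orange squares) for each gene and the tested genes beside it, in chromosome order. Slc26a1 in P2+ is drawn at the ratio of its counts with the 95% counting interval in place of the SE, and the open triangle is the bound for BC021614, whose P2+ libraries had 0 counts. Each of the 4 genes lies below its neighbours in P2+, and Als2cl (2.69) lies on the other side of 0 from Prss50 (-5.52).

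Genes with the most similar pattern were sought by the largest difference, in percentage points, between their WT, P2+ and KO levels as a percent of their own P2- mean and those of the gene, over the 4 group means of 12 libraries. For Slc38a5, among 9371 genes with at least 10 CPM in P2-, the 5 nearest were Abcg4, Camsap2, Ank1, Slc40a1 and Zbtb46. Abcg4, a sterol transporter, came within 6.67 points, with WT at 33.5%, P2+ at 8.96% and KO at 101% of its P2- mean. Ank1, the ankyrin of the red cell membrane skeleton, and Slc40a1, the iron exporter ferroportin, came within 12.3 and 13.4 points.

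For Slc26a1 the 5 nearest were Gpc4, Cpeb3, Sowaha, Rhag and Cldn13, the first of them, a glypican, within 6.20 points. Rhag, the Rh-associated glycoprotein of red cells, came within 10.9 points, with WT at 34.5%, P2+ at 11.5% and KO at 79.2% of its P2- mean. For BC021614, compared among 12540 genes with at least 1 CPM in P2-, the nearest was Slc38a5 itself, within 4.44 points, followed by Ank1, Rem2, Slc40a1 and Apobec2. The P2- and P2+ levels enter this distance and also chose both BC021614 and Slc38a5, so their nearness is in part set by the choice. The spread of BC021614 itself was far wider than that distance, with SDs of 19.9 points in WT and 64.0 points in KO (n = 3). For Prss50 the nearest genes were further away, from 11.0 points for AI427809, a long non-coding RNA, and 11.1 points for the antisense RNA 4933431E20Rik to 14.1 for Epdr1, 15.4 for Kif26b and 15.5 for Zg16. Prss50 itself had SDs of 12.2 points in WT, 37.9 in P2- and 13.8 in KO (n = 3), so distances of this size do not set it apart. Slc26a1 had SDs of 10.7 points in WT, 32.0 in P2- and 7.03 in KO.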

How the data were processed

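The deposited table holds raw counts per gene for 12 libraries. Per the labels and the study's methods, the authors prepared strand-specific poly(A) libraries, used Bowtie2 to align paired reads to GRCm38, and took counts per Ensembl gene with featureCounts. Whether counting used strand, and how reads with several alignments were treated, is not given in the sources used here. Each library's gene count is an integer without normalization.

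The comparisons were fitted in R 4.3.3 by edgeR 4.0.16. Of the 6 libraries compared, 3 or more had to reach 1 CPM for a gene to be tested. The fit used TMM scaling, the quasi-likelihood test on group, and Benjamini-Hochberg adjustment over all genes tested. A gene was called at an adjusted p under 0.05 and at least 2-fold. The authors' exactTest was run as an alternative, as were DESeq2 1.42.0, RLE scaling, other filters, all 4 groups in one fit, a replicate block and the omission of each library. CPM used TMM over the 12 libraries, and RPKM the exonic length in GENCODE vM21, in which 40254 of 41128 genes were found. The fit was tested on simulated data. The SE is the size of the log2 fold change divided by the root of the F statistic. Same-numbered P2+ and P2- libraries deviated together (correlations across genes of 0.386, 0.572 and 0.405), so numbers pair them. KO and WT did not do so throughout (0.158, 0.0234 and 0.0703). The study's RNA-seq results name WT, P2- and P2+ PreMegEs and not KO, and labels do not say whether KO libraries were made with the others. The p-values measure the spread between pools.

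The 4 genes and the 15 lists were chosen with earlier results of these data known. Named genes are the 4 genes, at most 4 per list by size of change or by level, overlapping genes, the 3 nearest on each side, the 5 most alike in pattern, those next in rank of fall, and Runx1. Named outside this rule, after their values were seen, were the sort antigens, Xist, Ddx3y, Sphk1, Acsl6, Asb17os, list genes at 0 in all libraries, and list genes given on p alone. Motifs and 75-base windows were matched exactly.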

Additional observations from a re-analysis of the deposited data

How the results depend on the processing

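In KO against WT the direction of each of the 4 genes held under the alternatives run for it. In KO against WT, Slc38a5 was called and Prss50 was not called under all 13 alternatives, with log2 fold changes between 1.75 and 1.85 and between -0.40 and -0.08. Slc26a1 ranged from 0.85 to 1.28 and was not called in one fit of all 4 groups (1.09, edgeR adjusted p = 0.0531) or without WT replicate 1. BC021614 was not called in the fit of all 4 groups (1.66, adjusted p = 0.107), and with 1 library left out its log2 fold change was between 1.09 and 2.17, with the call lost in 4 of 6 such fits. It had no value under the 5 CPM filter. For BC021614 the adjusted p over alternatives was between 0.0125 and 0.281, for Slc26a1 between 2.45e-05 and 0.0531. The cause of these losses was not tested. Genes called in KO against WT numbered 436, but 232 under a filter of 5 CPM, which tests fewer genes, and 1910 with no minimum fold change. List genes called numbered 18, and 62 with no minimum fold change. In P2+ against P2- 1626 genes were called, and 4762 with no minimum fold change.

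With the replicate number as a block, which pairs the P2+ and P2- libraries, 1778 genes and 70 of the list genes (64 without it) were called, and the log2 fold change was -5.49 for Prss50 and -5.41 for Slc38a5. In KO against WT the libraries share only a number. The block gave 449 called genes there and log2 fold changes of -0.21 for Prss50, 1.79 for Slc38a5 and 1.62 for BC021614, and it changed no call of these 4 genes. Leaving out replicate 2 of both P2 groups, an alternative chosen after seeing the data, gave 1483 called genes and 62 list genes. Depth limits BC021614, with at most 43 counts in a library, and the size of the falls of Slc26a1 and BC021614. Those falls chose the genes and were recomputed only under RLE scaling and with libraries left out. The log2 ratio of Slc26a1, -7.57 as reported, was between -7.75 and -6.03 with 1 library left out, at -6.03 (a bound) without P2+ replicate 1, -6.92 without P2+ replicate 2 and -6.99 without P2+ replicate 3. Without replicate 2 of both P2 groups it was -7.09.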
